A study of Mus musculus with 10 samples.

Results

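Alx1, Alx4, Prrx1 and Prrx2 are 4 paired-type homeobox genes of the facial mesenchyme, and they were followed by gene symbol through every library of an RNA sequencing series of the mouse frontonasal prominence, from which the forehead and nose develop. They are 4 of the 35542 genes in the count table, and all 4 passed the filter on low counts. The 10 libraries came from FVB/NJ mouse embryos at E10.5, with 6 libraries of genotype Smchd1 WT/WT (WT) and 4 of genotype Smchd1 MD1/MD1 (MD1). MD1 is the MommeD1 allele of Smchd1, a nonsense, loss-of-function allele of this chromatin silencing protein that every cell of the embryo carries, not the face alone. The tissue was cut out along its border with the maxillary prominence, and whole tissue was sequenced, so fewer cells of a type and less RNA per cell cannot be told apart.

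ALX and PRRX proteins are transcription factors that bind TAAT-containing sites, alone or as dimers, through a homeodomain of the paired type. Alx genes are expressed in the neural crest-derived mesenchyme around the nose and eye, and loss of ALX1 or ALX4 in people gives frontonasal dysplasia, a broad or cleft midface. Prrx1 and Prrx2 are expressed more widely in the mesenchyme of the face, limbs and body wall, and mice lacking both have severe defects of the jaw, ear and limbs.

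The coding sequence of the homeobox is shown because it is the part by which these genes form a family, and because closely similar genes can share reads. Each homeobox holds 180 bases, and the 18 capitals encode the core motif of the helix that reads the major groove of DNA. The sequences were read from the GENCODE M21 transcript sequences (GRCm38), and its annotation placed the coding stretch.
Alx1: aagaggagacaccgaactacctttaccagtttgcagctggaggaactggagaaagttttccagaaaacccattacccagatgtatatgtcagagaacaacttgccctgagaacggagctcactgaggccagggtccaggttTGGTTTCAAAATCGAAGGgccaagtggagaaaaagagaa
Alx4: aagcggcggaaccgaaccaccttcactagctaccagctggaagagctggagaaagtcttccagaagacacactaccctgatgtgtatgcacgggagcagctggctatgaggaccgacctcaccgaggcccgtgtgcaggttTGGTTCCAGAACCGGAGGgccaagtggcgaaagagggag
Prrx1: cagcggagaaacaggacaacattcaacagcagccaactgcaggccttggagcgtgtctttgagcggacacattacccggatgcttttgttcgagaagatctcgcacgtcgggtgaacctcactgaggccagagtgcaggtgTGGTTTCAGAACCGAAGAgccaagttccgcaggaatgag
Prrx2: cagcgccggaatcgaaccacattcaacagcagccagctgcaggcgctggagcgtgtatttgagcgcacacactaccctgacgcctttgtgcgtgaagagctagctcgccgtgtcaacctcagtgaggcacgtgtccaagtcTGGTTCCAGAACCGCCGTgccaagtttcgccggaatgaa

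In all 4 genes the homeobox was split between 2 coding exons at the same place, with 138 bases in the upstream exon and 42 in the downstream exon, so that the capitals straddle no junction and lie in the downstream exon. The 2 blocks lay at chr10:103025135-103025272 and chr10:103022264-103022305 on the minus strand for Alx1, at chr2:93668528-93668665 and chr2:93675296-93675337 on the plus strand for Alx4, at chr1:163261840-163261977 and chr1:163257901-163257942 on the minus strand for Prrx1, and at chr2:30878454-30878591 and chr2:30879492-30879533 on the plus strand for Prrx2. Prrx1 and Prrx2 shared 78.9% of the homeobox bases and Alx1 and Alx4 shared 76.7%, whereas pairs of an Alx and a Prrx gene shared 60.6% to 69.4%. After translation, the identity was 96.7% of residues between Prrx1 and Prrx2, 91.7% between Alx1 and Alx4, and 68.3% to 70.0% between families. All 4 genes held the same base at 97 of the 180 positions and at 12 of the 18 capitals. The longest identical run between any of these pairs was 17 bases, well short of the 75-base reads. Over whole transcripts, no 75-base window of Alx4, Prrx1 or Prrx2 occurred in a transcript of another gene. In Alx1, 2.84% of windows did, and every such window was shared with Gm17028.

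Prrx1 (ENSMUSG00000026586) spans 163245119 to 163313710 of chromosome 1 (GRCm38, minus strand) in 7 merged exon blocks. Prrx2 (ENSMUSG00000039476) and Alx4 (ENSMUSG00000040310) are both on the plus strand of chromosome 2, Prrx2 at 30834972 to 30881251 in 5 blocks and Alx4 at 93642384 to 93681339 in 3 blocks. Alx1 (ENSMUSG00000036602) spans 102998707 to 103030215 of chromosome 10, also on the minus strand, in 9 blocks. All 4 are annotated as protein-coding. The kit did not mark strand, so overlapping genes could share reads. Gm17028, a noncoding RNA on the same strand as Alx1 and sharing 243 exon bases with it, collected 1244 reads over the 10 libraries, and part of these may belong to Alx1. Ext2 overlaps Alx4 on the opposite strand without a shared exon base, and the 3 other annotated genes inside Prrx1 (Gm20471, Gm37644 and Gm26523) collected 0, 31 and 44 reads in total.

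Levels of the targeted gene, Smchd1, did not overlap between the groups and were lower in MD1. Its level was 246 ± 14 CPM (counts per 1000000 of TMM-scaled library size) in WT (SD, n = 6), and the MD1 libraries stood at 55.3, 99.8, 67.1 and 91.8 CPM in replicates 1 to 4. This was a log2 fold change of -1.65 (standard error 0.15), with an adjusted p of 0.000785 by edgeR's quasi-likelihood test. The libraries held 4195119 to 24125084 counts, with MD1 replicate 3 the shallowest. The library labelled MD1 female replicate 1 carried Ddx3y, a Y-linked gene, at 88.1 CPM against 78.1 to 91.3 CPM in the WT males, so its reads went against its label. Its Xist, the noncoding RNA of the inactive X chromosome, stood at 203 CPM, between the WT males (at most 2.07 CPM) and the WT females (2592 to 2692 CPM), and whether this library was mislabelled or mixed was not settled. MD1 replicate 4, labelled female, had Ddx3y at 0 CPM and Xist at 6717 CPM. It was the only MD1 library without Ddx3y reads, so traits of this library and of female MD1 embryos cannot be told apart. MD1 replicate 4 lay at -89.0 on the first principal component, and no other library was below -8.53. MD1 replicate 3 also stood apart, at 35.7 on the first component, where the next library was at 14.9. On the second component it lay at 69.5, and no other library was above 21.2. The fold changes of the 4 homeobox genes and the list medians are given with and without MD1 replicate 4. The labels describe separate samples but not separate litters. Each p-value therefore takes as independent libraries that may share a litter, and part of the spread may be technical.

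All 4 genes were well expressed in the WT prominence. Alx4 stood at 240 CPM in the lowest WT library, at a median of 286 CPM and at 330.0 CPM in the highest. Alx1 ranged from 121 through a median of 141 to 251 CPM in WT. Prrx1 ranged from 215 through a median of 254 to 366 CPM. Prrx2 ranged from 51.2 through a median of 57.9 to 78.5 CPM. The smallest number of reads behind any of these values was 229, for Prrx2 in MD1 replicate 3, which gives an exact Poisson 95% interval of 48.4 to 62.9 CPM for counting error only.

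Per length of merged exons, the order of the genes was different from that of their CPM, since Prrx1 carries 11066 exon bases and Prrx2 1961. On the deposited scale of log2 RPKM (reads per kilobase of transcript per 1000000 reads, as log2), the WT means were 5.17 for Alx4, 4.80 for Prrx2, 4.62 for Alx1 and 4.40 for Prrx1. On this scale Alx4 stood above 92.9% of the 15452 tested autosomal genes, Prrx2 above 89.3%, Alx1 above 87.6% and Prrx1 above 84.9%. As linear levels these libraries gave 36.2 ± 4.06 RPKM for Alx4, 28.1 ± 4.48 for Prrx2, 25.5 ± 7.64 for Alx1 and 21.5 ± 4.58 for Prrx1 (SD, n = 6). Alx4 was above Prrx2 in 6 of 6 WT libraries, by 0.37 ± 0.22 log2 RPKM (SD, n = 6). The exact 2-sided sign-flip permutation p was 0.0313, the smallest that 6 libraries allow, and 0.0938 after adjustment over the 3 neighbouring pairs. Prrx2 exceeded Alx1 in 4 of 6 WT libraries, by 0.17 ± 0.26 (SD, n = 6), with an exact permutation p of 0.156 (0.234 adjusted). Alx1 exceeded Prrx1 in 4 of 6, by 0.22 ± 0.46 (SD, n = 6), with an exact permutation p of 0.344 (0.344 adjusted). With 6 libraries and 3 pairs, an adjusted p under 0.05 would have needed at least 2 pairs at the smallest p, so the adjusted value of a single pair does not settle its order. The mean difference between Alx4 and Prrx2 was larger than its SD, whereas the differences between Prrx2, Alx1 and Prrx1 were smaller than theirs. The SD and p cover the spread between libraries only, since an error in a gene's exon length would shift every library alike.

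In MD1, Alx4 was likewise above Prrx2 in 4 of 4 libraries, by 0.42 ± 0.27 log2 RPKM (SD, n = 4), where the exact test cannot give less than 0.125. Prrx2 was above Alx1 in 2 of 4 MD1 libraries, and Alx1 above Prrx1 in 3 of 4.

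**Figure D1:**
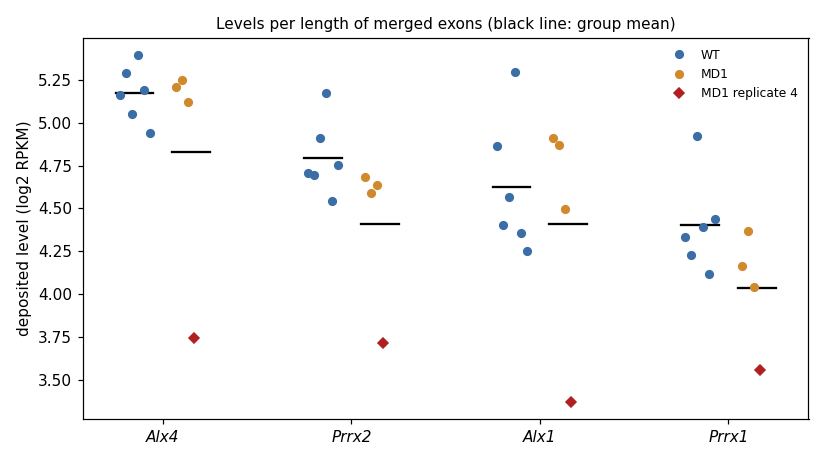
Deposited log2 RPKM of Alx4, Prrx2, Alx1 and Prrx1 (left to right by WT mean) in each WT library (blue) and MD1 library (orange, with MD1 replicate 4 as a red diamond), with black lines at group means. Alx4 has the highest means, the WT points of Prrx2, Alx1 and Prrx1 overlap, and MD1 replicate 4 is the lowest point of each gene.

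The 4 genes varied more among the WT libraries than most genes at a like level. The coefficient of variation in WT was 30.4% for Alx1, 20.4% for Prrx1, 15.8% for Prrx2 and 11.5% for Alx4. Among the 2919 tested genes whose WT mean lay within 2-fold of that of Alx1, the median was 6.61% and 99.4% varied less than Alx1 did. The corresponding share was 98.6% for Prrx1, 94.0% for Prrx2 and 92.4% for Alx4. The high WT libraries were not the same for each gene. WT replicate 4 was the highest of all 10 libraries for Alx1, Alx4 and Prrx2, at 0.68, 0.23 and 0.38 above the WT mean in log2 CPM, whereas Prrx1 was highest in WT replicate 3, at 0.50 above it.

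Lists of markers moved with these libraries. In WT replicate 4 the forebrain and eye neuroepithelium list (12 tested genes, including Six3) averaged -1.02 against the WT mean in log2 CPM, the lowest of the 10 libraries, and the facial mesenchyme list (31 genes) averaged 0.32 above it, the highest. In the same library the paired-type homeobox relatives (11 tested genes) averaged -0.54, the lowest of the 10, and the yolk sac and liver list (4 tested genes) averaged 1.82, the highest of the WT libraries. In WT replicate 3 the pharyngeal arch list (10 tested genes, including the jaw gene Barx1 and the tooth mesenchyme genes Lhx6 and Lhx8) averaged 0.53 above the WT mean, the highest of the 10, with WT replicate 6 at 0.52. WT replicate 6 had Prrx1 at 264 CPM, the next highest value but only 0.03 above the WT mean in log2 CPM. The summed level of the pharyngeal arch list ran from 71.4 to 213 CPM in WT and from 70.5 to 126 CPM in MD1. Of its 14 genes, Hand1, Hand2, Dlx4 and Gbx2 did not pass the filter, and Hand2, a defining gene of the lower jaw, had 0 reads in every WT library. In MD1 replicate 4 Hand2 stood at 0.76 CPM, and Hand1 at 7.06 CPM against at most 0.046 CPM in WT. The part of these cells in the spread of Alx1 and Prrx1 was not tested.

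The comparison of genotypes asks whether loss of SMCHD1 changes the level of these genes in the tissue they pattern. Across the 15452 autosomal genes tested, 12 passed an adjusted p of 0.05 in edgeR, which is 0.0777%, with 11 higher and 1 lower in MD1. None of the 4 homeobox genes was among them. All 4 had lower means in MD1, and in each the WT and MD1 libraries overlapped, against 2.05% of tested genes in which they did not.

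Prrx1 stood at 218, 255, 206 and 175 CPM in MD1 replicates 1 to 4, a mean of 213 ± 33.1 (SD, n = 4) against 263 ± 53.7 in WT (SD, n = 6). MD1 replicates 3 and 4 lay below the lowest WT library and replicate 2 lay near the WT median. The log2 fold change, -0.30 (standard error 0.15), had a 95% interval from -0.62 to 0.01, and edgeR gave an adjusted p of 0.514 (0.0596 before adjustment). Prrx2 stood at 55.6, 52.6, 55.3 and 34.5 CPM in MD1 replicates 1 to 4, a mean of 49.5 ± 10.1 (SD, n = 4) against 60.9 ± 9.60 in WT (SD, n = 6). Only replicate 4 was below the lowest WT library. Its log2 fold change, -0.30 (standard error 0.15), had a 95% interval from -0.64 to 0.03, with an adjusted p of 0.520 in edgeR (0.0679 before adjustment). As linear folds, MD1 against WT, these intervals run from 0.649 to 1.01 for Prrx1 and from 0.643 to 1.02 for Prrx2.

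Alx4 stood at 288, 299, 279 and 127 CPM in MD1 replicates 1 to 4. The first 3 values lay inside the WT range and differed by a standard deviation of only 10.2 CPM, while replicate 4 stood at 44.7% of the WT mean. The mean was 248 ± 81.2 CPM in MD1 (SD, n = 4) and 283 ± 32.5 in WT (SD, n = 6). The log2 fold change, -0.19 (standard error 0.20), had a 95% interval from -0.62 to 0.24 (adjusted p = 0.714, edgeR). Alx1 stood at 191, 187, 147 and 79.8 CPM in MD1 replicates 1 to 4, again with only replicate 4 below the lowest WT library. The mean was 151 ± 51.6 CPM in MD1 (SD, n = 4) and 162 ± 49.4 in WT (SD, n = 6). Its log2 fold change, -0.10 (standard error 0.25), had a 95% interval from -0.65 to 0.45 (adjusted p = 0.889, edgeR).

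**Figure D2:**
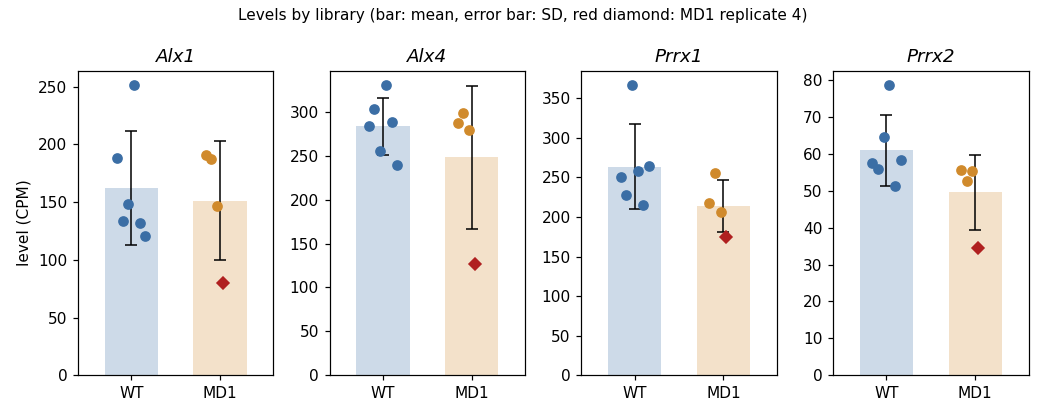
Level in CPM of Alx1, Alx4, Prrx1 and Prrx2 in each WT library (blue, n = 6) and MD1 library (orange, n = 4, with MD1 replicate 4 as a red diamond), on axes that start at 0, with bars for means and error bars for SD. MD1 replicate 4 is the lowest library in every panel, at 79.8, 127, 175 and 34.5 CPM, and the other MD1 libraries lie among the WT libraries, except that MD1 replicate 3 is slightly below them in Prrx1.

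The direction of the Alx values rested on that library. Without MD1 replicate 4 the log2 fold change was 0.12 for Alx1, 0.03 for Alx4, -0.21 for Prrx1 and -0.16 for Prrx2, and no adjusted p of the 4 was below 0.868 in edgeR. Alx1 also turned positive, at 0.07, without WT replicate 4, its highest library. Prrx1 moved to -0.19 without WT replicate 3, its highest library. Both Prrx genes were lower in MD1 in value with every single library left out, over -0.40 to -0.19 for Prrx1 and -0.37 to -0.16 for Prrx2. Without both libraries labelled MD1 female, the values were 0.05 for Alx1, 0.03 for Alx4, -0.19 for Prrx1 and -0.18 for Prrx2.

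**Figure D3:**
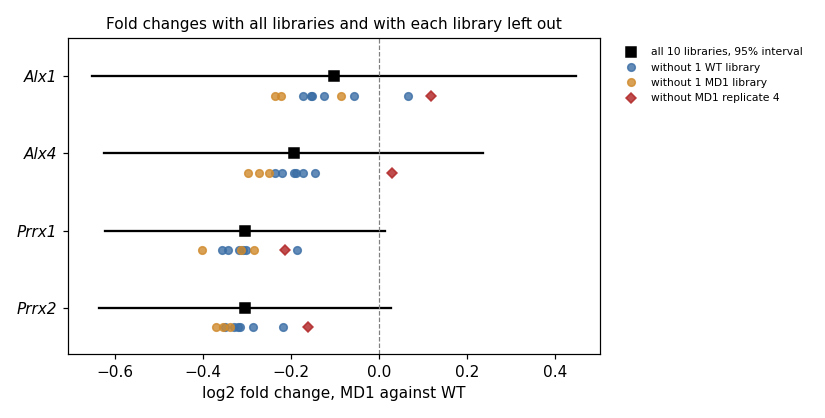
Log2 fold change of MD1 against WT (x axis) for Alx1, Alx4, Prrx1 and Prrx2 from all 10 libraries (black squares with 95% intervals) and with each library left out in turn (blue for WT, orange for MD1, red diamond for MD1 replicate 4). All 4 intervals reach past 0, and leaving out MD1 replicate 4 moves Alx1 to 0.12 and Alx4 to 0.03.

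In MD1 replicate 4 the Alx and Prrx genes stood below the WT mean by unequal amounts. Its log2 CPM less the WT mean was -1.15 for Alx4, -0.98 for Alx1, -0.81 for Prrx2 and -0.57 for Prrx1. Of all tested genes, 5.17% were lower than Alx4 on this measure in this library, 7.65% lower than Alx1, 10.9% lower than Prrx2 and 17.9% lower than Prrx1. This library was the lowest of the 10 for 30.1% of tested genes, and for all 4 members. Of the 31 facial mesenchyme and neural crest genes, 8 were lowest there, among them Pdgfra, the platelet-derived growth factor receptor of crest mesenchyme, at 127 CPM against 218 to 375 in WT, and Msx1, a homeobox gene of the growing prominences, at 115 CPM against 155 to 269. Others were highest there, such as the forkhead gene Foxc2, at 52.9 CPM against 20.6 to 27.6 in WT.

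The summed levels of markers of low oxygen, blood and vessels stood high in the same library, though not every gene did. All 16 tested hypoxia genes had positive log2 fold changes, and their summed level was 14136 CPM in MD1 replicate 4, the highest of a range in MD1 from 1869 CPM, against 1510 to 3284 CPM in WT. Among them Ndrg1, a stress-induced gene, stood at 360 CPM against a WT mean of 10.4 CPM, and Bnip3, a mitophagy receptor, at 430 CPM against 32.4 CPM. The erythroid list (8 tested genes) summed to 20186 CPM there against 3054 to 4425 CPM in WT, with the embryonic globin Hbb-bh1 at 5845 CPM, and the lowest MD1 library was at 2676 CPM. The endothelial list (10 genes) summed to 976 CPM against 403 to 526 CPM in WT and 419 CPM in the lowest MD1 library, with the VEGF receptor Flt1 at 276 CPM and the adhesion molecule Pecam1 at 124 CPM. Within these lists the tight junction gene Cldn5 was low there, at 12.7 CPM against 16.5 to 32.5 CPM in WT. The receptor Tie1 was inside its WT range at 47.5 CPM. Hba-a2, an alpha globin gene whose reads may be split with its near-identical copy Hba-a1, stood there at 0.152 CPM. Its range was 2.26 to 7.26 CPM in WT and 0 to 2.66 CPM in MD1, with the minimum in another MD1 library. Every gene of the 3 lists had reads. The cell cycle list (14 genes) averaged -0.40 against the WT mean in log2 CPM, with the mitotic kinase Plk1 at 67.7 CPM against a WT mean of 159 CPM and the mitotic activator Cdc20 at 86.7 CPM against 188 CPM. Of its 14 genes 10 were lowest there. Bub1 was above its WT range, at 264 CPM against 201 to 253 CPM, and Mki67 and Top2a were inside theirs, at 906 and 1015 CPM. None of these lists held a gene past the threshold, and without MD1 replicate 4 their medians moved from 1.69 to 0.31 for hypoxia, from 0.99 to -0.15 for erythroid genes, from 0.18 to 0.03 for endothelium and from -0.11 to -0.01 for the cell cycle. The part of these differences in the low Alx and Prrx values was not tested.

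WT replicate 1 and MD1 replicate 1 (the one whose reads went against its sex label) also had high hypoxia scores, at 1.17 and 1.13 above the WT mean in log2 CPM. In WT replicate 1, Alx1 was 0.26 above and Alx4 0.01 above the WT mean, with Prrx1 at -0.05 and Prrx2 at -0.07. In MD1 replicate 1 the values were 0.28 for Alx1, 0.03 for Alx4, -0.25 for Prrx1 and -0.12 for Prrx2. Neither library was the lowest for any of the 4 genes. Both hypoxia scores were well below that of MD1 replicate 4, at 3.35, and the relation of hypoxia to the 4 genes was not tested.

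**Figure D4:**
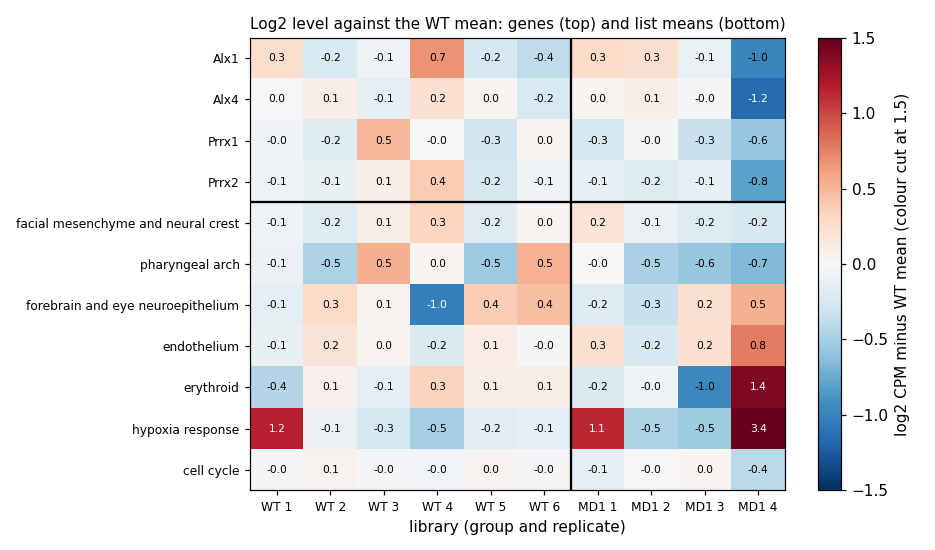
Log2 CPM less the WT mean, as numbers and colour, for Alx1, Alx4, Prrx1 and Prrx2 (upper rows) and for the means of 7 marker lists (lower rows), in the 6 WT and 4 MD1 libraries (columns). MD1 replicate 4 is low in all 4 members, from -1.15 to -0.57, and high in hypoxia (3.35) and erythroid (1.39) genes, while WT replicate 4 is high in Alx1 and low in forebrain genes (-1.02).

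Ratios within a library do not depend on how libraries are scaled, and the length of each gene cancels between groups. The log2 ratio of Prrx1 to Prrx2 in CPM was 2.10 ± 0.26 in WT (SD, n = 6) and 2.12 ± 0.22 in MD1 (SD, n = 4). The difference of 0.02 gave an exact 2-sided permutation p of 0.924 over 210 arrangements (0.924 adjusted over the 2 ratios). In MD1 the replicates gave 1.97, 2.27, 1.90 and 2.34, all inside the WT range of 1.71 to 2.50. The log2 ratio of Alx1 to Alx4 was -0.84 ± 0.31 in WT (SD, n = 6) and -0.71 ± 0.14 in MD1 (SD, n = 4). The difference of 0.13 gave an exact permutation p of 0.467 (0.924 adjusted). The replicates in MD1 gave -0.59, -0.67, -0.92 and -0.67, so that in MD1 replicate 4, where both genes were low, their ratio was inside the WT range of -1.18 to -0.39.

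Across the 10 libraries, the log2 CPM of Alx1 and Alx4 gave a Pearson r of 0.829 (permutation p = 0.00170, adjusted over 6 pairs 0.0102) and a Spearman coefficient of 0.576 (permutation p = 0.0879, adjusted 0.264). Without WT replicate 4 and MD1 replicate 4, the libraries farthest from the median of Alx1, r was 0.459. Alx1 and Prrx2 gave r of 0.809 (permutation p = 0.0118, adjusted 0.0355) and a Spearman coefficient of 0.491 (permutation p = 0.154, adjusted 0.308), and r was -0.09 without the same libraries. Alx4 and Prrx2 gave r of 0.811 (permutation p = 0.0245, adjusted 0.0491) and a Spearman coefficient of 0.176 (permutation p = 0.631, adjusted 0.733), and r was 0.342 without WT replicate 6 and MD1 replicate 4. Leaving out the farthest libraries narrows the range of values, which can itself lower r. Without MD1 replicate 4 alone, r was 0.682 for Alx1 and Alx4, 0.565 for Alx1 and Prrx2, and 0.252 for Alx4 and Prrx2. Prrx1 and Prrx2 gave r of 0.690 (permutation p = 0.0399, adjusted 0.0598) and a Spearman coefficient of 0.818 (permutation p = 0.00595, adjusted 0.0357), and r was 0.476 without WT replicate 3 and MD1 replicate 4. Prrx1 gave r of 0.424 with Alx1 (permutation p = 0.214, adjusted 0.214, Spearman coefficient 0.345 with permutation p = 0.331, adjusted 0.497) and -0.03 without the 2 farthest libraries. With Alx4 it gave r of 0.425 (permutation p = 0.192, adjusted 0.214, Spearman coefficient 0.127 with permutation p = 0.733, adjusted 0.733) and -0.41 without them. Among the 6 WT libraries alone, r ran from -0.48 for Alx4 and Prrx1 to 0.788 for Alx1 and Prrx2, and no pair passed an exact permutation test after adjustment (0.367 at the lowest).

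The genes whose pattern over the 10 libraries was most like that of a member were found by Pearson r of log2 CPM, as a description, since the points share the depth and tissue makeup of each library. For Alx1 these were Arhgdib, an inhibitor of small GTPases in blood cells (r = 0.979), Wnt5a, the non-canonical Wnt ligand of outgrowing prominences (r = 0.975), and Cavin2, a protein of caveolae (r = 0.960). Within WT alone the same genes gave 0.973, 0.941 and 0.987, and without MD1 replicate 4 they gave 0.957, 0.948 and 0.95. These libraries were among those by which the genes were chosen, so such values are no separate check. Within WT alone, 217 tested genes (1.40%) had r over 0.9 with Alx1. Wnt5a stood at 105, 130 and 228 CPM at its WT minimum, median and maximum, and at 170, 176, 131 and 67.5 CPM in MD1 replicates 1 to 4, so that it was highest in WT replicate 4 and lowest in MD1 replicate 4, as Alx1 was. Arhgdib and Cavin2 rested on fewer reads, at WT means of 9.68 and 6.46 CPM. Alx4 itself was 261st in this ranking of 15451 genes for Alx1, and Prrx2 was 363rd.

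For Alx4 the closest genes were Dixdc1, a DIX-domain protein of Wnt signalling (r = 0.983), Ifit2, an interferon-induced gene (r = 0.977), and Cstf2t, an RNA cleavage factor (r = 0.975). Their r dropped to 0.828, 0.788 and 0.752 without MD1 replicate 4, and the number of genes with r over 0.9 dropped from 449 to 1. For Prrx2 they were Dlg5, a polarity scaffold (r = 0.972), Rasl11b, a Ras-like protein (r = 0.968), and Anxa11, an annexin (r = 0.966), which gave 0.941, 0.905 and 0.90 without that library. For Prrx1 they were Foxl2os, a noncoding RNA next to Foxl2 (r = 0.903), Wsb2 (r = 0.892) and Fam220a (r = 0.891); all 3 were highest in WT replicate 3 as Prrx1 was. Over all 10 libraries 1 gene had r over 0.9 with Prrx1, 53 with Alx1 and 126 with Prrx2, and without MD1 replicate 4 the numbers were 4, 34 and 12, so the order of the members by this count rested on that library. None of these 12 genes passed the threshold between genotypes.

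**Figure D5:**
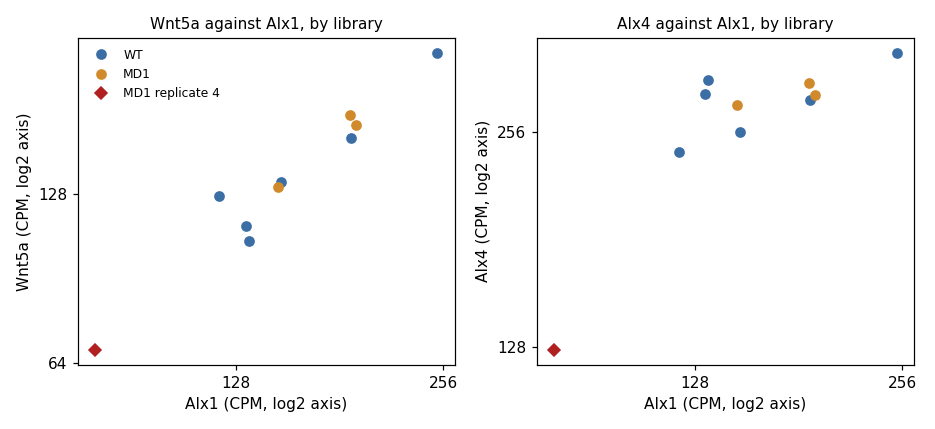
Wnt5a against Alx1 (left) and Alx4 against Alx1 (right) in CPM on log2 axes, 1 point per library (WT blue, MD1 orange, MD1 replicate 4 red diamond). Wnt5a rises with Alx1 across all libraries (r = 0.975), whereas the points of Alx4 spread little apart from MD1 replicate 4 (r = 0.829 with it and 0.682 without it).

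None of the other paired-type homeobox genes tested passed the threshold. Of 15 genes on the list 14 were in the table and 11 were tested, 5 higher and 6 lower in MD1 in value, with a median log2 fold change of -0.04 (0.0069 without MD1 replicate 4) against 0.00 over all tested genes. Shox2, a gene of the palate and limb, stood at 27.9 ± 7.80 CPM in WT (SD, n = 6) and 21.7 ± 11.1 in MD1 (SD, n = 4), with a log2 fold change of -0.34 (adjusted p = 0.675, edgeR). Gsc, the goosecoid gene of the jaw and ear, stood at 6.19 ± 2.24 CPM in WT (SD, n = 6) and 4.49 ± 1.94 in MD1 (SD, n = 4), at -0.40 (adjusted p = 0.634, edgeR). Shox2 was lowest in MD1 replicate 4, at 11.1 CPM, and its log2 fold change without that library was -0.08.

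The genes that act with ALX and PRRX factors were followed as a list of 24 partners and pathway genes (Twist and E-protein partners, PBX and MEIS cofactors, Hedgehog, Fgf, Bmp, Wnt and retinoic acid signals, and the matrix genes Tnc and Postn). All 24 were tested, 9 were higher and 15 lower in value, none passed the threshold, and the median was -0.07 (0.0086 without MD1 replicate 4). Postn, which encodes periostin, had the largest log2 fold change in size, at 2.52 with a standard error of 0.74 (adjusted p = 0.50, edgeR), from 10.6 ± 3.82 CPM in WT (SD, n = 6) to 60.4 ± 83.9 in MD1 (SD, n = 4). It stood at 183 CPM in MD1 replicate 4, and its value without that library was 0.98. Tnc, which encodes tenascin C and has been described as a target of PRRX1, stood at 11.6 ± 5.41 CPM in WT (SD, n = 6) and 7.74 ± 4.14 in MD1 (SD, n = 4), at -0.56 (adjusted p = 0.609, edgeR). It was lowest in MD1 replicate 4, as the members were, and its value without that library was -0.27.

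The facial mesenchyme and neural crest list, which the tissue label calls for, was expressed in every library. All 31 genes were tested, 12 higher and 19 lower in value, none past the threshold, with a median of -0.03 (-0.0061 without MD1 replicate 4). Its summed level was 3553 to 4732 CPM in WT and 3568 to 4439 CPM in MD1. Foxc1, a forkhead gene of the periocular mesenchyme, had the value of largest size among the genes at 5 CPM or more, at 0.35 (adjusted p = 0.508, edgeR), and Twist2, a bHLH gene of dermal mesenchyme, had -0.34 (adjusted p = 0.647, edgeR). Sox10, the marker of migrating neural crest and glia, was low, at 0.859 to 2.56 CPM in WT and 0 in MD1 replicate 4.

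Since Prrx1 and Prrx2 are also genes of limb and body wall, markers of those tissues were looked at beside them. Of the 12 genes, 2 passed the filter and 4 had 0 reads in every library (Hoxa9, Hoxa13, Hoxd11 and Hoxd12), and the forelimb gene Tbx5 did not exceed 2.17 CPM. Lmx1b, also a gene of the periocular mesenchyme, stood at 8.60 ± 2.68 CPM in WT (SD, n = 6) and 8.58 ± 3.25 in MD1 (SD, n = 4), and its log2 fold change of -0.01 became -0.31 without MD1 replicate 4. The pharyngeal arch list had a median of -0.56 (-0.23 without MD1 replicate 4) over its 10 tested genes, 4 higher and 6 lower in value and none past the threshold. Barx1, at 9.97 ± 10.3 CPM in WT (SD, n = 6) and 2.42 ± 1.11 in MD1 (SD, n = 4), had -1.96 (adjusted p = 0.50, edgeR), and Lhx6 had -1.37 (adjusted p = 0.503, edgeR). Their WT spread was set by libraries from 1.88 to 25.5 CPM for Barx1 and from 4.06 to 30.6 CPM for Lhx6. Among the 4 higher in value were the endothelin gene Edn1 at 1.43 and Dlx3 at 0.45. Both were highest in MD1 replicate 4, at 9.72 and 14.0 CPM against at most 1.68 and 6.72 CPM in WT. The part of arch tissue in the dissected samples in the Prrx1 value was not tested.

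Other tissues that a dissected prominence could hold were counted in the same way, and no gene of these lists passed the threshold. The forebrain and eye list had a median of 0.02 (-0.12 without MD1 replicate 4) over 12 tested genes (7 higher, 5 lower in value), with Fezf2 at 0.82 and Neurog2 at 0.69, values that became -0.15 and -0.11 without that library. The surface ectoderm and nasal placode list had a median of 0.26 over 15 genes (13 higher, 2 lower), with Krt8, a simple epithelial keratin, at 0.49 and the sensory neuron gene Neurog1 at -0.74. Without MD1 replicate 4 these values were 0.11, 0.14 and -0.48. The macrophage list had a median of -0.25 (-0.13 without MD1 replicate 4) over 8 genes (2 higher, 6 lower), with the receptor Csf1r at -0.12. The yolk sac and liver list had a median of 3.08 over 4 genes (4 higher), with Trf, transferrin, at 1.32 and Afp, alpha-fetoprotein, at 3.71. Afp stood at 239 CPM in MD1 replicate 1 and 68.3 CPM in MD1 replicate 4 against a WT mean of 6.10 CPM. The median of the list was 3.26 without MD1 replicate 4, 1.00 without MD1 replicate 1 and -1.89 without both libraries labelled MD1 female. In MD1 replicate 1 Alx1 and Alx4 were inside their WT ranges, at 191 and 288 CPM.

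No neighbour of a member passed the threshold either. On chromosome 2, Asb6 ends 4639 bases before Prrx2 and Ptges begins 8220 bases after it, and their log2 fold changes were -0.24 (adjusted p = 0.604, edgeR) and -0.15 (adjusted p = 0.754, edgeR). Both were low in MD1 replicate 4, at -0.88 and -0.65 against the WT mean in log2 CPM, as Prrx2 was. Values of this size were common there. Of all tested genes, 10.9% were lower than Prrx2, at -0.81, and 17.9% were lower than Prrx1, at -0.57. Whether members and their neighbours vary together was not tested. The neighbours of Alx4 did not share its low value there: Cd82 was 0.93 and Accs 0.32 above the WT mean in that library, and the overlapping Ext2 was 0.10 above it, with a log2 fold change of 0.03 (adjusted p = 0.911, edgeR). Around Prrx1, Gorab, at 71198 bases, and Fmo1, at 378509 bases, were 0.34 and 0.63 above the WT mean in MD1 replicate 4. Around Alx1, Lrriq1, at 15816 bases, was at 0.61 against it in that library and Rassf9, at 448971 bases, at -1.96. Gm17028, which overlaps Alx1, was at -1.5, with a log2 fold change of -0.43 between genotypes (adjusted p = 0.623, edgeR).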

How the data were processed

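RNA from dissected E10.5 frontonasal prominences (6 WT, 4 MD1) was made into unstranded TruSeq libraries and read as 75-base single-end reads. Per the study's methods and the submitters' processing notes, trimming used Trim Galore 0.4.4, alignment to GRCm38.p6 used HISAT2 2.0.5, and SeqMonk gave the values per gene. The values deposited by the authors are raw counts and, in another table, log2 RPKM values normalized for library size and transcript length. Columns of genotype averages were not used. Of 35591 rows, 27 had a date for a symbol, restored from the identifier, and 49 repeated an identifier, which left 35542 genes.

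Deposited counts were filtered with filterByExpr (15982 genes kept), scaled by TMM and tested by quasi-likelihood in edgeR 4.0.16 (R 4.3.3), with no covariate and Benjamini-Hochberg adjustment at 0.05 over the 15452 autosomal genes, since the study left out sex chromosomes. Depth was 4195119 to 24125084 counts per library. Levels are CPM of the TMM-scaled library, and log2 CPM used a prior count of 2. Levels of different genes were compared on the deposited log2 RPKM. Ratios and orders were tested by exact permutation. The test was run on simulated counts first. Alternatives were RLE and total-count scaling, other filters, DESeq2 1.42.0, limma 3.58.1, a sex covariate, a replicate block and left-out libraries.

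The 4 members and all gene lists were chosen with earlier results of these data known, so no list is independent evidence. Named genes were the members, Smchd1, the closest tested gene on each side of a member and any overlapping gene, the 3 genes with the highest r to each member, and from each list the genes called or, where fewer than 2 were, the 2 of largest absolute log2 fold change at a WT mean of 5 CPM or more. Foxc2, Pdgfra, Msx1, Sox10, Tbx5, Hand1, Hand2, Dlx4, Gbx2, Six3, Lhx8, Edn1, Dlx3, Cldn5, Tie1, Hba-a2, Bub1, Mki67, Top2a, Xist, Ddx3y and the Hox genes were named after their values were seen. Some genes are not reported here. All 45 pairs of libraries differed by more than sampling noise.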

Additional observations from a re-analysis of the deposited data

Results flagged for a closer look

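In 40 sets of values (the members, Smchd1, both ratios and 13 list scores, each in WT and in MD1), 4 libraries stood farther from the rest of their group than Dixon's 95% critical value allows, and chance gives this in about 1 of 20 sets. Alx4 in MD1 replicate 4, at 127 CPM, was far from the next MD1 library at 279 CPM. Prrx2 in MD1 replicate 4, at 34.5 CPM, was far from the next at 52.6 CPM. Prrx1 in WT replicate 3, at 366 CPM, was far from the next WT library at 264 CPM. The hypoxia score of WT replicate 1, at 1.17 in log2 CPM above the WT mean, was far from the next at -0.09.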

How the results depend on the processing

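None of the 4 homeobox genes passed the threshold under any alternative tried, the lowest adjusted p being 0.304 (Prrx1 without MD1 replicate 2). The number of autosomal genes called, 12 in edgeR, was 51 with DESeq2, 4 with limma on log2 RPKM, 7 with at least 1 CPM in every library, 4 in libraries labelled male, 6 without both libraries labelled MD1 female, and 4 to 13 with each library left out. With a replicate block edgeR called 0, with 360 genes at an unadjusted p under 0.05, and Smchd1 stood at an adjusted p of 0.145. The labels do not say what a number shared by WT and MD1 marks, and whether it marks a litter or batch was not tested. The deviations of same-numbered libraries correlated at 0.0017, -0.074, 0.050 and -0.12, and 0 of the 4 WT libraries correlated best with the MD1 library of its own number. With each library left out, Alx1 ran from -0.24 to 0.12, Alx4 from -0.30 to 0.029, Prrx1 from -0.40 to -0.19 and Prrx2 from -0.37 to -0.16. The sign turned in libraries labelled male (Alx1 0.11, Alx4 0.045) and without both libraries labelled MD1 female (Alx1 0.053, Alx4 0.032), without WT replicate 4 for Alx1 (0.066), and without MD1 replicate 4 for Alx1 (0.12) and Alx4 (0.029). The ratio of Prrx1 to Prrx2 turned to -0.13 in libraries labelled male and to -0.016 without both libraries labelled MD1 female, and ran from -0.060 to 0.098 with each library left out (-0.060 without WT replicate 4, -0.034 without MD1 replicate 2, -0.055 without MD1 replicate 4). The cause of these moves was not tested. The depth of MD1 replicate 3 limits low genes.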
